A study of Mus musculus with 31 samples.

Results

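Tumour cultures from 2 mouse medulloblastomas heterozygous for both Ptch and p53, tumours 27 and B, were compared with culture lines from 8 medulloblastomas heterozygous for Ptch with wild-type p53. The comparison used 14 of the 31 arrays of the series. Tumours 27 and B were each measured on 3 technical replicate arrays, which were averaged to 1 value per tumour, and the lines 74, 91, 92, 9, 49, 68, 77 and 83 were measured once each. All were labelled C57BL/6, carried the heterozygous Ptch allele, were called cancer stem cells by the submitters and grew as neurospheres with EGF and FGF2. The mice's age, the agent or promoter behind either allele and the state of the remaining p53 allele in the cultures are not stated in the sources at hand. A further 9 neural stem cell (NSC) cultures from postnatal day 7 mice entered the fit to estimate the spread, since 2 tumours alone estimate it poorly.

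Medulloblastoma is a tumour of the cerebellum. Ptch1 encodes the receptor that holds the Sonic hedgehog pathway in check, and mice with a single working copy develop medulloblastoma from cells of the granule neuron lineage. Trp53 encodes p53, a transcription factor that responds to DNA damage and other stress by switching on genes that halt the cell cycle, trigger cell death, repair DNA and restrain p53 itself. Losing p53 function makes these tumours appear earlier and in more animals. Neurosphere culture favours cells that resemble neural stem and glial progenitor cells.

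Values are RMA log2 intensities, on which 1 unit is a 2-fold change. Differences are p53 het minus p53 wild-type, ± the standard error of the limma fit, and a gene was called higher or lower at a Benjamini-Hochberg adjusted p under 0.05 over all 18194 genes. Nothing in the labels says that the lines came from separate animals, so a p-value here reflects only how much these samples vary. The number of arrays limits the precision. No date mark in the titles was shared by the 2 genotypes, so whatever the marks stand for and genotype cannot be told apart. Y-linked genes lay between 0.72 and 1.67 on arrays lacking Y signal, so readings up to 1.67 were taken as background, a guide chosen after the data were seen. For a gene whose lower group mean was no more than 1.67, the text gives a lower bound (at least), the distance of the higher mean from 1.67. Y-linked Eif2s3y read 6.57 in line 92 and 6.33 in line 68 and at most 1.13 as the mean of either p53 het culture. Y signal was thus not balanced between the genotypes, and whether it reflects the sex of the mice was not tested.

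The 2 p53 het cultures differed from the lines over a large part of the transcriptome. In all 4782 genes were called (26.3% of those tested), 2636 higher (14.5%) and 2146 lower (11.8%) in the p53 het cultures. Of these, 1810 differed at least 2-fold, 63 were at least 16-fold higher and 23 at least 16-fold lower. Both p53 het cultures lay above all 8 lines for 2455 genes (13.5%) and below all 8 for 2078 (11.4%). In a principal component analysis of the 10 tumour cultures, component 1 held 48.3% of the variance and placed tumours 27 and B at 82.84 and 83.21, with the lines between -27.64 and -12.64. The 2 p53 het tumours also differed from each other. They lay at least 1 log2 unit apart for 1354 genes. The median gap between them was 0.231, and the median absolute difference between the genotypes was 0.218. The gap sets 2 single cultures against each other, whereas the genotype difference sets a mean of 2 against a mean of 8. The values are therefore not directly comparable. The spread among technical arrays of 1 tumour had a median SD of 0.176.

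**Figure D1:**
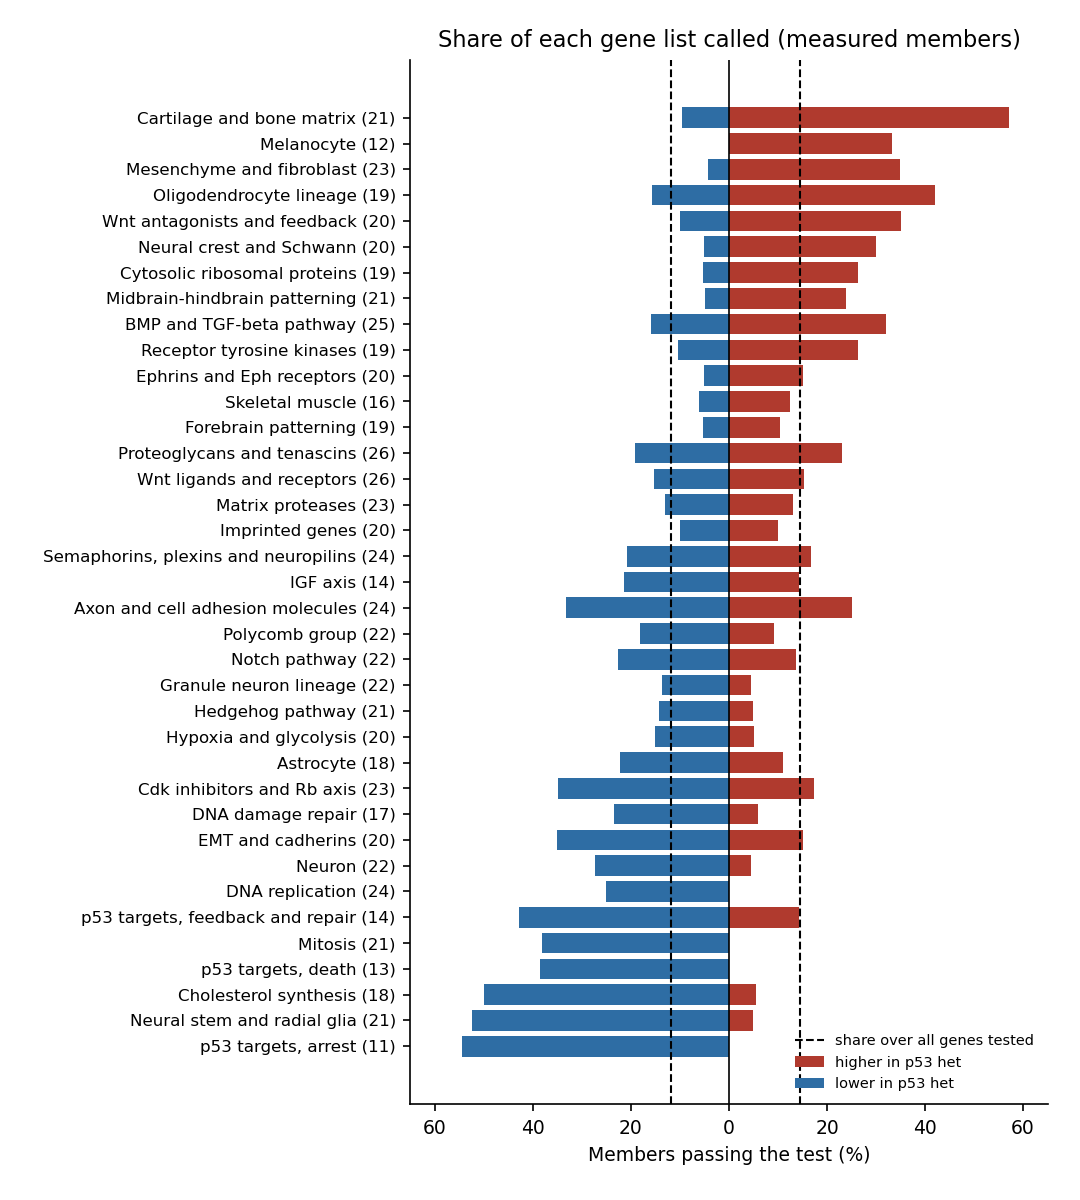
Share of the measured members (number in parentheses) that passed the test, for each gene list with at least 3 called or on p53, hedgehog or the cell cycle, higher in the p53 het cultures to the right and lower to the left, in percent. Dashed lines mark the shares over all 18194 genes, 14.5% higher and 11.8% lower. The list with the longest bar to the right is cartilage and bone matrix (57.1% higher) and the list with the longest bar to the left is p53 targets of arrest (54.5% lower).

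Many genes that p53 is known to switch on were lower in the p53 het cultures. Of 38 measured p53 targets 17 were called lower and 2 higher, against 11.8% and 14.5% of all genes, and their median difference was -0.74 against 0.03 over all genes. Without tumour 27 the count was 15 lower and 0 higher, and without tumour B it was 13 and 2. To show which promoters carry the letters that p53 recognises, the 250 bases upstream of the start are given below for Cdkn1a, Ccng1 and Mdm2, from RefSeq's GRCm38.p6 (Cdkn1a at chr17:29090729-29090978 on the plus strand, Ccng1 at chr11:40755287-40755536 and Mdm2 at chr10:117710759-117711008 on the minus strand). Capitals mark the p53 decamer, the 10-letter unit that p53 binds in pairs, which reads the same on both strands.
Cdkn1a: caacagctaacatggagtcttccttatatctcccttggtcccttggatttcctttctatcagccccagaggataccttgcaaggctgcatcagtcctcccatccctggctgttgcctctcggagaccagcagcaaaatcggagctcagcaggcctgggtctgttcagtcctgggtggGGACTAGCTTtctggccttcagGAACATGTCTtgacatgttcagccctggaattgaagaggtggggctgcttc
Ccng1: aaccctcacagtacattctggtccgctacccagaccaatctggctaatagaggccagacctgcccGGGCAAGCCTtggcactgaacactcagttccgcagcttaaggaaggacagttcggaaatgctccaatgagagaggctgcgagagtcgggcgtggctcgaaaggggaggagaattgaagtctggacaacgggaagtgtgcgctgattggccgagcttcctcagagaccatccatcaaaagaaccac
Mdm2: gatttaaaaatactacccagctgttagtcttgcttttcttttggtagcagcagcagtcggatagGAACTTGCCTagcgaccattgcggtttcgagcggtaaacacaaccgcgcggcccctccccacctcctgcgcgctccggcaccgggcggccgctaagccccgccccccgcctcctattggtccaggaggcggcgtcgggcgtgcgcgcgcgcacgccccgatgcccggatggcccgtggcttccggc

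The Cdkn1a window, which belongs to 1 of 2 starts listed for the gene, held 2 decamers, at -73 and -51 from the start. The Ccng1 window held 1, at -185, and the Mdm2 window held 1, at -186. Among 32851 RefSeq starts, 7.13% held a decamer in these 250 bases, and 0.0639% held a pair with at most 13 bases between. The table held 42 starts of 31 p53 targets, and 12 of the 42 starts had a decamer. Cdkn1a alone had a pair. A match is a description of the letters, and p53 is also known to bind outside this window at some of these genes.

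Cdkn1a encodes p21, the Cdk inhibitor through which p53 arrests the cell cycle. It read 7.11 in tumour 27 and 6.10 in tumour B, against 7.40 at the lowest, 8.42 at the median and 9.12 at the highest over the 8 lines. Both p53 het cultures lay below every line, by -1.83 ± 0.35 (adjusted p = 0.000708). Ccng1, a cyclin that recruits a phosphatase to Mdm2, read 6.79 and 6.01 against 7.27, 8.87 and 9.43 (lowest, median and highest line, the order kept below), a difference of -2.28 ± 0.41 (adjusted p = 0.000444). Again the groups did not overlap. Of the 11 arrest targets 6 were lower and 0 higher, against 11.8% and 14.5% of all genes, with a median difference of -1.20. Among the others, the anti-proliferative gene Btg2 fell by 1.82 ± 0.50, the kinase gene Plk2 by 2.50 ± 0.36 and Zmat3, which encodes an RNA-binding zinc finger protein, by 1.20 ± 0.25, all with both p53 het cultures under every line. Sfn, Gadd45a and Gtse1, arrest genes of the same list, differed by -0.41 ± 0.15, -0.77 ± 0.51 and -0.08 ± 0.23 and did not pass the test. Sfn passed in 10 alternative settings, for example at -0.50 after quantile normalization (adjusted p = 0.0399), and Gtse1, on chromosome 15, passed at -0.67 (adjusted p = 0.00706) with the brighter genes (mean over the tumour cultures at or above the median gene) centred within each chromosome.

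The death genes moved the same way in part. Of 13 measured 5 were lower and 0 higher, against 11.8% and 14.5% of all genes, with a median of -0.77. Eda2r, a death receptor of the tumour necrosis factor family, read 2.21 and 1.11 against 4.40, 6.57 and 7.03, which made it at least 4.60 lower (adjusted p = 9.25e-07). Trp53inp1, which promotes p53-dependent death and autophagy, was lower by -2.01 ± 0.30, with 7.32 and 6.65 against 7.84, 9.14 and 9.51. Aen, a nuclease of apoptotic cells, differed by -1.42 ± 0.26, Apaf1, the scaffold of the apoptosome, by -0.77 ± 0.14, and Pidd1, which activates caspase-2, by -0.71 ± 0.13. Each of these 5 lay below all lines in both p53 het cultures. The BH3-only genes Bbc3 (-0.15 ± 0.31, adjusted p = 0.797) and Pmaip1 (1.46 and 1.62 against 1.63, 2.28 and 3.98, adjusted p = 0.183) and the death receptor gene Fas (-0.91 ± 0.48, adjusted p = 0.197) did not pass.

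Of 14 feedback, repair and metabolic targets 6 were lower and 2 higher, against 11.8% and 14.5% of all genes. Their median difference was -0.35, and it was -0.3 without tumour 27 and -0.47 without tumour B. Ephx1, a microsomal epoxide hydrolase, read 5.21 and 5.40 against 8.56, 8.99 and 9.77, a difference of -3.78 ± 0.23 (adjusted p = 2.5e-09). The 2 p53 het cultures were close together and more than 3 units under the lowest line. Sesn2, an inhibitor of mTORC1, was lower by -1.62 ± 0.27, the fructose bisphosphatase gene Tigar by -0.78 ± 0.18 and Mdm4, the partner of Mdm2 in holding p53 down, by -1.02 ± 0.17. With the mean of its probe sets Mdm4 differed by -0.27 and did not pass (adjusted p = 0.0718). Mdm2 itself, the ubiquitin ligase that degrades p53, read 6.81 and 6.95 against 6.97, 7.09 and 7.61. Both cultures lay just under the lowest line, but the difference of -0.35 ± 0.15 did not pass (adjusted p = 0.105). Mdm2 passed with single arrays and the tumour as a random block (-0.35, adjusted p = 0.0307). It also passed against the lines of 1 date mark (-0.5, adjusted p = 0.0323). The nucleotide excision repair gene Xpc was higher by 0.54 ± 0.16 and the ribonucleotide reductase subunit gene Rrm2b by 0.51 ± 0.18. Rrm2b lies on chromosome 15, on which genes read higher as a group in both p53 het cultures (below). Among the 17 lower targets line 83 was the lowest of the 8 lines for 11. How often line 83 was the lowest over all genes was not counted, so this count has no baseline.

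**Figure D2:**
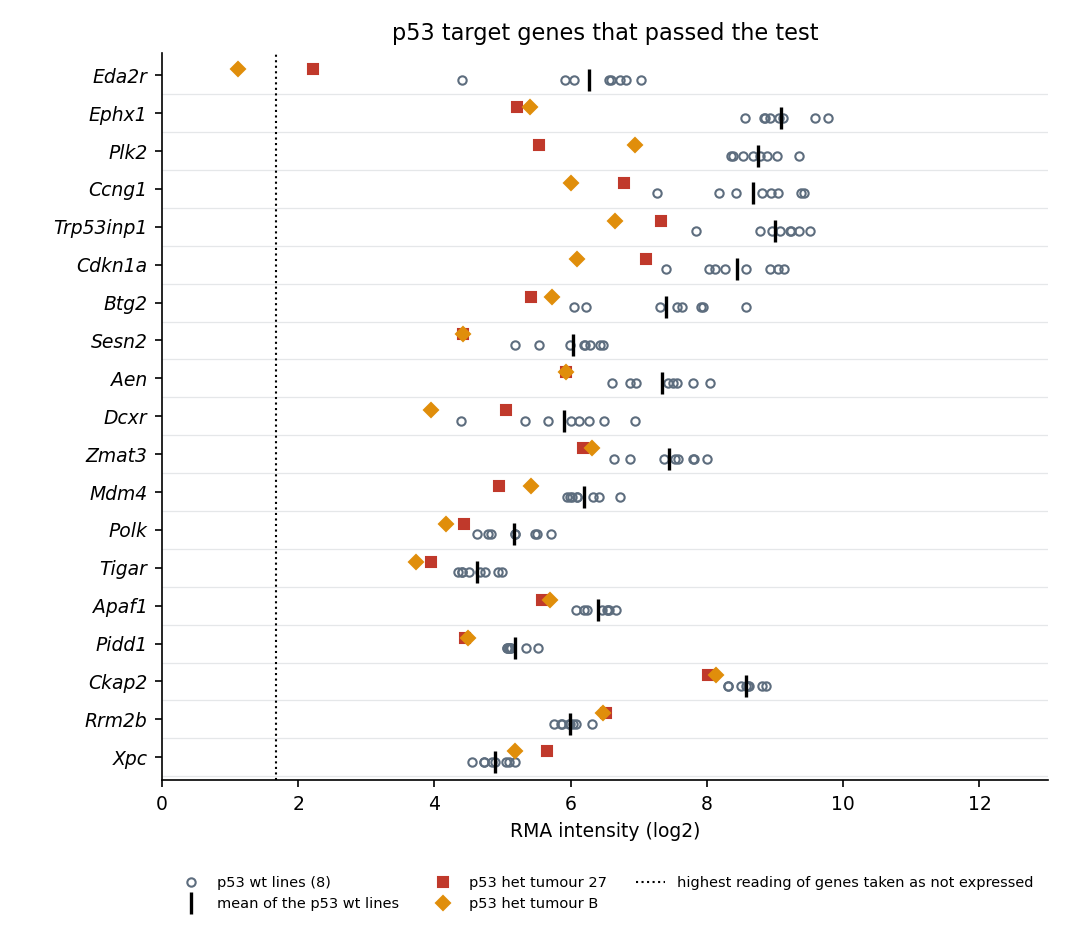
RMA log2 intensity of the 19 p53 targets that passed the test, ordered by the difference, in tumour 27 (square), tumour B (diamond) and the 8 p53 wild-type lines (circles, with their mean as a bar). For Cdkn1a the p53 het values are 7.11 and 6.10 and the lowest line is at 7.40; Eda2r in tumour B lies left of the dotted line at 1.67.

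Trp53 had no probe set of its own symbol alone among those used, so its transcript was not analysed here and the p53 genotype was not checked at its own gene. Ptch1 read 5.75 in tumour 27 and 7.58 in tumour B against 5.72, 6.46 and 7.75, and the difference of 0.03 ± 0.47 did not pass (adjusted p = 0.974). The 2 p53 het cultures spanned nearly the whole range of the lines. Of 21 measured hedgehog pathway genes 3 were lower and 1 higher, near the share over all genes. Sufu, which restrains the Gli factors, was lower by -0.51 ± 0.14 and Gpr161, a receptor that also restrains the pathway, by -0.77 ± 0.23, both with separate groups. With the mean of all probe sets of a gene neither passed, at -0.20 (adjusted p = 0.2) and -0.34 (adjusted p = 0.0668), and neither passed without tumour 27 or without tumour B. Without tumour B only 1 hedgehog gene was lower, and without line 68 the count was 5. Gli1, the most direct readout of hedgehog signalling, was near background in all tumour cultures, at 2.59 and 2.08 against 1.86, 2.00 and 2.56 (adjusted p = 0.389).

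The cell cycle machinery differed in its regulators. Cdkn2a, which encodes p16Ink4a and p19Arf, an inhibitor of Mdm2, read 7.13 and 7.12 against 1.38, 4.44 and 5.94. Both p53 het cultures lay above every line, and lines 92 and 83 were the lowest, with 1.38 and 1.62. The difference was 3.21 ± 0.87 (adjusted p = 0.0101). Cdkn2a did not pass in the fit of tumour cultures alone (adjusted p = 0.0559), without tumour 27 (0.0746) or without tumour B (0.0718). The array does not tell its 2 products apart here. Of the D-type cyclins, which start the cycle with Cdk4 and Cdk6, Ccnd2 read 9.31 and 6.62 against 10.75, 10.98 and 11.33 (-3.05 ± 0.40) and Ccnd1 read 9.88 and 9.37 against 11.16, 11.30 and 11.38 (-1.66 ± 0.12). Ccnd3 went the other way, at 8.95 and 9.34 against 5.98, 6.79 and 7.74 (2.35 ± 0.28). All 3 cyclins separated the groups completely, and tumour B was far lower than tumour 27 for Ccnd2. The Rb gene Rb1 was lower by -0.79 ± 0.16, Cdkn2c by -0.89 ± 0.17 and Cdkn1b by -1.0 ± 0.27. With the mean of its probe sets Cdkn1b differed by -0.48 and did not pass (adjusted p = 0.265). It also did not pass in the fit of tumour cultures alone (0.0508) or with technical array 1 of each p53 het tumour (-0.65, 0.112). Myc was higher by 0.97 ± 0.17 and lies on chromosome 15, and with the brighter genes centred within each chromosome it differed by 0.38 and did not pass (adjusted p = 0.13). Of the 23 genes of this axis 8 were lower and 4 higher, against 11.8% and 14.5% of all genes, with a median of -0.10. In a fit of the tumour cultures alone 6 were lower and 2 higher.

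Proliferation genes showed a split between the 2 p53 het tumours that the group mean hides. Of 24 DNA replication genes 6 were lower and 0 higher, against 11.8% and 14.5% of all genes, with a median of -0.29. Of the 24, 23 were among the brighter genes, of which 21.3% were lower and 18.3% higher. All 24 read lower in tumour 27 than in tumour B. Tumour 27 lay below all 8 lines for 21 of them and above for 0, while tumour B lay below for 6 and above for 8. Without tumour 27 the count became 6 higher and 1 lower, and without tumour B it became 0 higher and 17 lower, so the direction of this list rests on tumour 27. Rrm2, the regulated subunit of ribonucleotide reductase, read 7.16 in tumour 27 and 9.23 in tumour B against 9.78, 10.11 and 10.34 (-1.90 ± 0.30, adjusted p = 0.000144). Its 3 technical arrays lay between 6.97 and 7.29 for tumour 27 and between 9.12 and 9.35 for tumour B. For Mcm7, a subunit of the replicative helicase, tumour 27 was under every line at 9.68 and tumour B over every line at 10.80, against 10.07, 10.25 and 10.39, and the mean difference was near 0 (adjusted p = 0.991).

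Mitosis genes were lower in part, against 11.8% lower and 14.5% higher among all genes. Among the brighter genes, which include every mitosis and DNA repair gene measured, 21.3% were lower and 18.3% higher. Of 21 measured 8 were lower and 0 higher, with a median of -0.45, and without tumour 27 the count was 5 lower and 2 higher. Cenpf, a kinetochore protein, read 6.42 and 6.40 against 7.53, 7.88 and 8.18 (-1.48 ± 0.14, adjusted p = 8.34e-07). Mki67, the Ki-67 proliferation antigen, read 8.74 and 9.16 against 9.78, 10.10 and 10.33 (-1.15 ± 0.13). Both genes lay under every line in both cultures. The kinetochore motor gene Cenpe fell by 1.28 ± 0.20 and the spindle motor gene Kif11 by 0.93 ± 0.17. Cdk1, the kinase that starts mitosis, read 8.90 and 9.53 against 8.76, 9.04 and 9.27 and did not pass (adjusted p = 0.426). Of 17 DNA repair genes 4 were lower and 1 higher (2 and 1 without tumour 27, 6 and 0 without tumour B). The damage kinase gene Atm was lower by -0.63 ± 0.13, Brca1, of homologous recombination, by -0.78 ± 0.20 and the checkpoint kinase gene Chek1 by -0.88 ± 0.20.

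**Figure D3:**
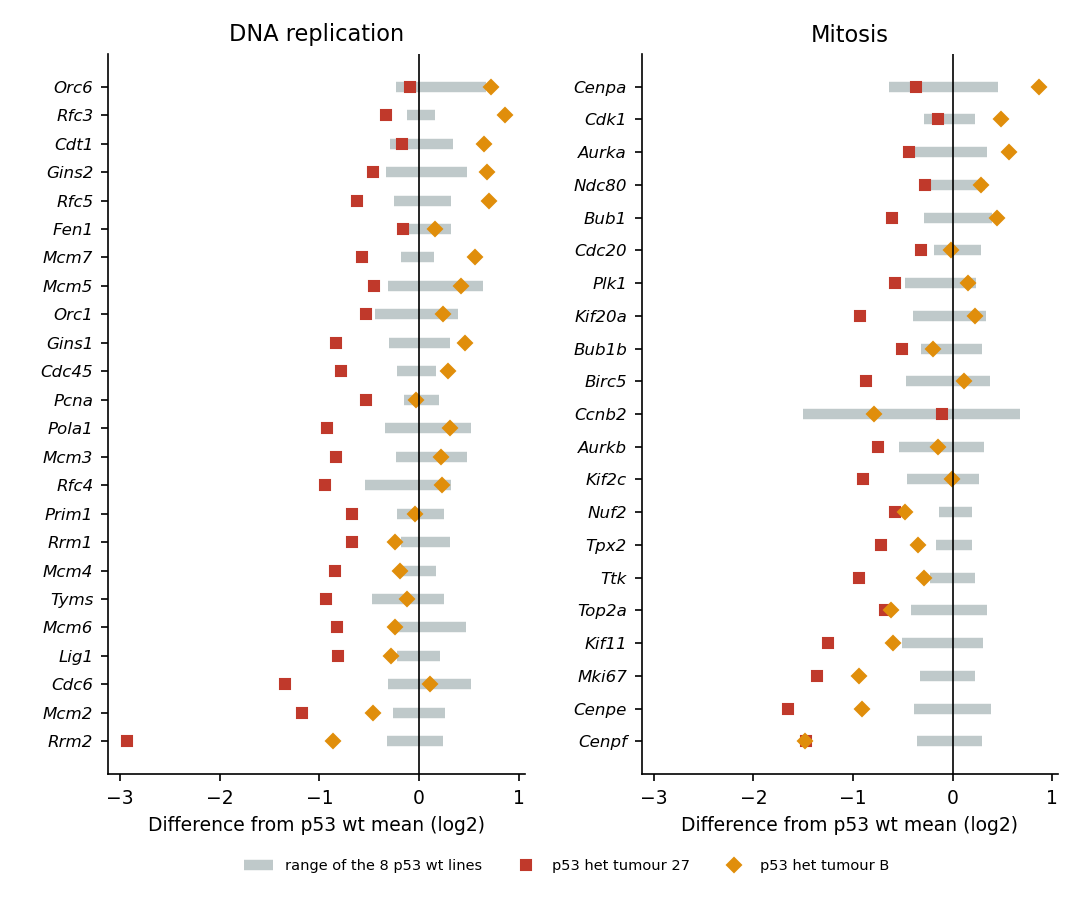
Difference of tumour 27 (square) and tumour B (diamond) from the mean of the 8 p53 wild-type lines, in log2 units, for each measured gene of DNA replication (left) and mitosis (right), with the range of the lines as a grey bar. The squares lie left of the diamonds for all 24 replication genes and for 19 of 21 mitosis genes.

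Of the 12 highest genes that separated the groups 4 encode cartilage matrix, which chondrocytes secrete and in which collagen II, IX and XI fibrils hold the proteoglycan aggrecan. Of 21 measured cartilage and bone genes 12 were higher and 2 lower, against 14.5% and 11.8% of all genes, with a median difference of 2.31. In a separate fit of the 9097 brighter genes alone, only 7 of the 21 were tested, and that fit called 4 higher and 3 lower. Hapln1, the link protein that ties aggrecan to hyaluronan, had the largest difference of all genes that separated the groups. It read 9.47 and 9.0 against 0.99, 1.13 and 1.95. The lines were at the level of genes not expressed, except line 91 at 1.95, and the p53 het cultures were at least 7.57 higher (adjusted p = 3.39e-14). It read no more than 1.22 in the 9 NSC cultures and 1.28 in the 8 p53 wild-type tumour tissues. Acan, aggrecan itself, read 8.88 and 8.0 against 1.98, 2.29 and 2.56 (6.16 ± 0.22, adjusted p = 1.78e-12).

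The collagens followed. Col11a2 read 9.04 and 8.17 against 1.97, 2.21 and 2.54 (6.39 ± 0.17), and Col9a1 read 11.14 and 11.08 against 3.65, 4.47 and 6.38 (6.32 ± 0.48). Col2a1, the main collagen of cartilage, read 8.87 and 7.50 against 2.64, 3.06 and 3.27 (5.16 ± 0.24). Col9a3 and Col11a1 were higher by 4.76 ± 0.37 and 4.04 ± 0.52, the cartilage glycoprotein gene Cnmd by at least 5.33 and the matrilin gene Matn4 by 3.32 ± 0.17. In each of these the groups were separate. Sox6, a partner of Sox9 in cartilage, was higher by 1.53 ± 0.27. Sox9, the factor that switches on Col2a1 and Acan in chondrocytes, was among the 2 lower genes, at 3.06 and 4.59 against 6.55, 7.42 and 7.97 (-3.55 ± 0.36, adjusted p = 1.24e-06). The other was Alpl, the bone alkaline phosphatase, lower by -1.80 ± 0.31. Late cartilage and bone genes did not pass: Matn1, Comp, Chad, Ibsp and Sp7 differed by 0.28, 0.03, -0.08, 0.04 and -0.06.

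Genes of oligodendrocyte precursors, the glial progenitors that make myelin cells, were the next group. Of 19 measured 8 were higher and 3 lower, against 14.5% and 11.8% of all genes, with a median of 0.39. Sox10, the factor that drives both oligodendrocyte and Schwann cell fate, read 10.53 and 9.59 against 3.73, 4.15 and 5.48 (5.83 ± 0.36, adjusted p = 2.95e-09). It lies on chromosome 15, whose median gene differed by 0.57 (below). Gpr17, a receptor of committed precursors, read 8.81 and 8.07 against 2.70, 3.12 and 5.31 (5.12 ± 0.55). Pdgfra, the PDGF receptor of early precursors, read 10.27 and 10.11 against 5.17, 6.29 and 8.12 (3.79 ± 0.69). Each put both p53 het cultures over every line. Ugt8a, which makes myelin galactolipids, was higher by 3.36 ± 0.53, the myelin transcription factor gene Myrf by 1.81 ± 0.19 and the myelin protein gene Mbp by 1.32 ± 0.18. Olig1, Olig2 and Nkx2-2, the factors that specify the lineage, were lower by -0.92 ± 0.13, -1.50 ± 0.17 and -1.44 ± 0.17, though Olig1 still read 11.20 and 10.87. The late myelin genes Mag, Mobp, Mog and Opalin did not pass.

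Sox10 is shared with the neural crest, from which Schwann cells and melanocytes come. Of 20 measured crest and Schwann genes 6 were higher and 1 lower, against 14.5% and 11.8% of all genes. Erbb3, the neuregulin receptor of Schwann cells, read 9.73 and 8.62 against 1.85, 2.13 and 3.43 (6.92 ± 0.32, adjusted p = 7.55e-11), and line 68 was the highest of the lines at 3.43. Snai2, a crest transcription factor, was higher by 3.81 ± 0.23 and the peripheral myelin gene Pmp22 by 2.39 ± 0.23. Sox8 was lower by -2.64 ± 0.68. Ngfr and Egr2, which mark Schwann cells, differed by -0.44 ± 0.22 and -0.53 ± 0.45 and did not pass. Of 12 melanocyte genes 4 were higher and 0 lower. Mitf, the master factor of the lineage, read 6.62 and 6.27 against 4.22, 4.64 and 5.57 (1.72 ± 0.34), and the pigment genes Dct and Pmel were higher by 2.36 ± 0.20 and 1.79 ± 0.18. The pigment enzyme genes Tyr and Tyrp1 were near background in both groups, at 1.54 and 1.52 or less in the p53 het cultures.

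**Figure D4:**
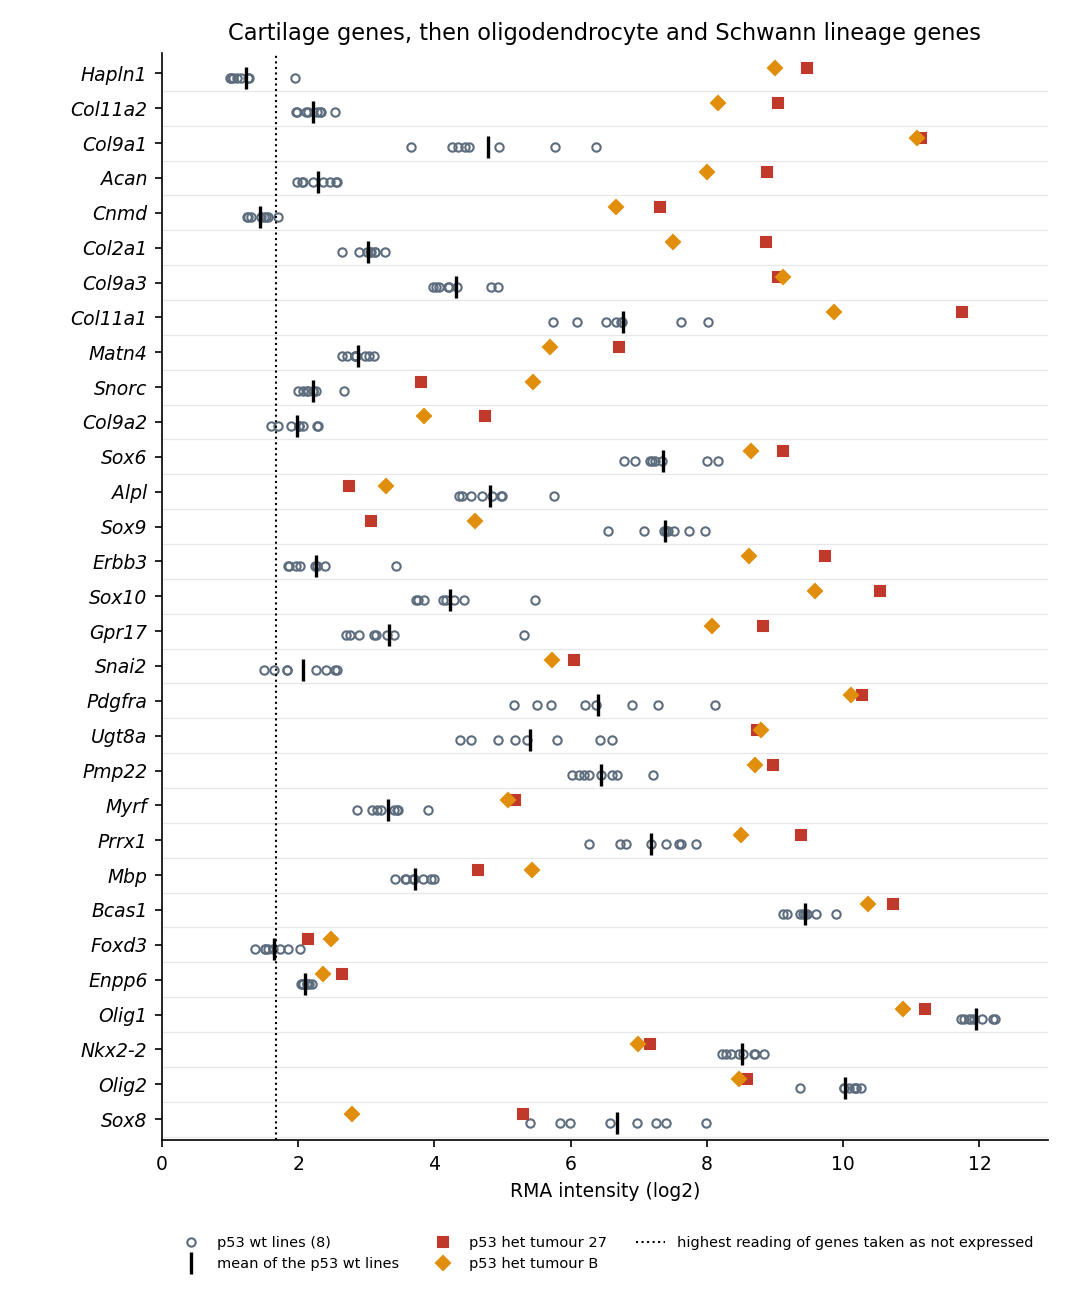
RMA log2 intensity of the cartilage and bone genes that passed the test, followed by the oligodendrocyte, crest and Schwann lineage genes that passed, in tumour 27 (square), tumour B (diamond) and the 8 lines (circles, with their mean as a bar). Hapln1 lies at 9.47 and 9.0 in the p53 het cultures and at 1.95 or less in the lines, whereas Sox9 and Olig2 lie under every line.

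Neural stem and radial glial genes were lower as a list. Of 21 measured 11 were lower and 1 higher, against 11.8% and 14.5% of all genes, with a median of -0.56. Tnc, the stem cell niche matrix protein tenascin C, read 5.10 and 3.46 against 7.75, 8.85 and 10.996 (-4.75 ± 0.57, adjusted p = 8.86e-06). Nes, the intermediate filament nestin, read 6.58 and 7.15 against 8.45, 8.82 and 9.48 (-2.04 ± 0.25). The lipid carrier gene Fabp7 read 10.73 and 10.19 against 12.14, 12.45 and 12.70 (-1.98 ± 0.17). All 3 lay below every line in both p53 het cultures. Sox3, Slc1a3 and Hes1 were lower by -2.05 ± 0.31, -1.88 ± 0.33 and -2.21 ± 0.38. Sox2, the core neural stem factor, differed least of the called genes with -0.48 ± 0.16 (9.74 and 9.36 against 9.60, 10.02 and 10.41), and tumour 27 lay inside the range of the lines.

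Of 18 astrocyte genes 4 were lower and 2 higher (6 and 0 without tumour 27). With both tumours the shares lower and higher were 22.2% and 11.1%, against 11.8% and 14.5% of all genes. Mlc1, an astrocyte membrane protein, read 5.24 and 2.14 against 7.84, 8.26 and 8.64 (-4.60 ± 0.47), and the glutamate transporter gene Slc1a2 read 4.65 and 3.34 against 4.90, 7.65 and 8.30 (-3.41 ± 0.66). S100b was higher by 2.13 ± 0.64. In tumour B alone several astrocyte genes were far lower than in tumour 27. Apoe read 10.26 in tumour 27 and 3.72 in tumour B, against 8.35, 10.26 and 11.58 in the lines. The gap junction gene Gja1 read 7.47 and 1.19 against 4.50, 7.78 and 8.90. Neither passed the test (adjusted p = 0.0603 and 0.07), though both passed with dim genes left out (adjusted p = 0.0401 and 0.0464). In all, 17 of 18 astrocyte genes read lower in tumour B than in tumour 27. Of 22 neuron genes 6 were lower and 1 higher, and 2 lower and 2 higher without tumour 27. Tubb3 was higher by 2.88 ± 0.54, while Gap43, Map2 and Gad1 were lower by -1.60 ± 0.30, -1.32 ± 0.17 and -2.73 ± 0.64.

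Fewer cells of a type and less RNA per cell cannot be told apart in such bulk RNA. Markers of other cell types were therefore read as whole lists. The 8 neural stem markers had a mean level of 7.26 to 7.42 in the p53 het cultures, 8.36 to 9.11 in the lines and 8.52 to 9.01 in the NSC cultures. Of these markers 7 were lower and 0 higher, against 11.8% and 14.5% of all genes. The 8 blood and microglia markers averaged 1.89 to 1.90 in the p53 het cultures and 1.73 to 2.14 in the lines, with 0 called, and Ptprc, the marker of all leukocytes, read 0.99 and 1.19. The 6 endothelial markers averaged 1.85 to 1.96 and 1.77 to 2.11, with 0 called. Fibroblast and mural markers were higher for 3 of 8, with a mean of 2.63 to 3.61 against 2.01 to 2.46. Of 4 muscle, 4 neuron and 4 epithelial markers 0, 0 and 1 were higher and 0, 1 and 0 lower. Of the cartilage, Schwann and crest, and melanocyte markers 3 of 6, 3 of 6 and 3 of 5 were higher, against 14.5% of all genes. Whether a second cell type in the cultures carries these genes was not tested.

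Mesenchyme and fibroblast genes were higher for 8 of 23 and lower for 1, against 14.5% and 11.8% of all genes. The fit of the brighter genes alone tested 6 of the 23 and called 1 higher and 1 lower. Col6a1, a microfibrillar collagen, read 8.96 and 6.54 against 2.54, 2.87 and 4.38 (4.78 ± 0.50), and S100a4 read 7.52 and 5.65 against 2.49, 3.28 and 4.12 (3.37 ± 0.40). Both p53 het cultures were above all lines. The fibrillar collagens split the 2 tumours. Col3a1 read 3.26 in tumour 27 and 8.33 in tumour B against 1.13, 1.33 and 1.49, and Col1a1 read 2.21 and 6.01 against 1.58, 1.82 and 2.11. Tumour B carried most of either difference. Thy1, a surface glycoprotein of neurons and fibroblasts, was lower, at 2.54 and 2.27 against 3.54, 7.71 and 8.84 (-4.88 ± 0.90), and line 49 at 3.54 stood apart from the other lines. Skeletal muscle genes were higher for 2 of 16 and epithelial genes for 1 of 18, near or under the share of all genes.

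Outside these lineages the 12 highest genes that separated the groups included Cthrc1, a secreted collagen triple helix protein (7.28 and 9.13 against 1.40, 1.68 and 2.73, 6.44 ± 0.35), on chromosome 15. Car6, a secreted carbonic anhydrase, differed by 6.41 ± 0.39. The X-linked gene Capn6, a calpain without protease activity, read 8.77 and 8.26 against 1.91, 2.06 and 2.52 (6.39 ± 0.17). Rnf128, a ubiquitin ligase also on the X chromosome, differed by 5.93 ± 0.51 and Lpcat2, which makes platelet-activating factor, by 5.73 ± 0.16. Grb10, an imprinted adaptor that dampens insulin and IGF signalling, read 6.83 and 8.94 against 1.75, 1.99 and 2.71 (5.78 ± 0.40). In each of them both p53 het cultures lay above the highest line.

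The 12 lowest genes that separated the groups were led by Gpm6a, a neuronal membrane glycoprotein. It read 2.55 and 2.36 against 8.0, 8.67 and 9.52 (-6.30 ± 0.29, adjusted p = 8.09e-11), with 9.57 to 10.10 in the NSC cultures. The potassium channel gene Kcnc1 read 2.09 and 2.06 against 7.33, 8.02 and 8.96 (-5.95 ± 0.31). The lines and the NSC cultures were high for both genes, and the p53 het cultures were low. The metabotropic glutamate receptor gene Grm3 was lower by -5.49 ± 0.42, the bicarbonate transporter gene Slc4a4 by -4.83 ± 0.64 and the protocadherin gene Pcdh11x by -4.94 ± 0.35. The neuronal stress kinase gene Mapk10 was lower by -5.59 ± 0.32, the matrix receptor gene Mxra8 by -5.08 ± 0.65 and the carbonic anhydrase gene Car3 by at least 6.07. Serpinh1, the collagen chaperone Hsp47, read 3.42 and 3.47 against 8.22, 8.63 and 9.46 (-5.29 ± 0.27), so it was lower in the cultures in which collagen genes were higher. Ctsc, the protease cathepsin C, was lower by -5.71 ± 1.14, but line 91 also read low, at 2.29, against 6.80 or more in the other lines.

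Growth factor receptor genes were called in both directions, where over all genes 14.5% were higher and 11.8% lower. Egfr, the receptor of a factor in the culture medium, read 4.15 and 1.89 against 7.12, 8.32 and 9.15 (-5.33 ± 0.46, adjusted p = 1.87e-07), with 8.64 to 9.22 in the NSC cultures. Tumour B was near the background. Of 19 receptor tyrosine kinase genes 5 were higher and 2 lower (3 and 3 without tumour 27). Besides Erbb3 and Pdgfra, the FGF receptor gene Fgfr2 was higher by 1.83 ± 0.36 and Axl by 1.72 ± 0.43, and the neurotrophin receptor gene Ntrk3 was lower by -1.77 ± 0.28. Of 6 measured genes of IGF binding proteins, which hold IGF away from its receptor, 3 were lower. Igfbp2 read 7.82 and 6.98 against 10.49, 10.99 and 11.45 (-3.57 ± 0.23), Igfbp3 read 6.28 and 6.61 against 9.84, 10.03 and 10.64 (-3.68 ± 0.22), and Igfbp4 was lower by -2.47 ± 0.41. Igfbp5, Igfbp6 and Igfbp7 differed by 1.80, -0.01 and -0.11 and did not pass. Over the whole IGF axis 3 of 14 genes were lower and 2 higher (3 and 0 without tumour 27).

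Among Wnt genes, 7 of 20 antagonists and feedback genes were higher and 2 lower, against 14.5% and 11.8% of all genes, and the fit of the brighter genes alone tested 7 of them and called 2 higher and 2 lower. Wif1, which binds Wnt proteins outside the cell, read 6.30 and 5.59 against 1.03, 1.27 and 2.70 and was at least 4.28 higher. Frzb, a secreted Frizzled-like antagonist that is also made in cartilage, read 8.83 and 7.54 against 3.21, 4.0 and 4.47 (4.23 ± 0.38). Both cultures were above every line for both genes. The Wnt feedback genes Axin2 and Nkd1 were lower by -1.49 ± 0.24 and -2.0 ± 0.25, whereas Lef1 and Apcdd1, which Wnt signals also induce, were higher by 1.55 ± 0.14 and 2.47 ± 0.34. Of 26 Wnt ligands and receptors 4 were higher and 4 lower (2 and 3 without tumour 27, 4 and 2 without tumour B, 2 higher without line 68, 74, 77 or 91, each left out alone), including the receptor genes Fzd6 (2.60 ± 0.19, on chromosome 15), Fzd2 (2.31 ± 0.32), Fzd3 (-1.37 ± 0.32) and the ligand gene Wnt5a (-2.05 ± 0.27).

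Notch genes, which keep neural stem cells undifferentiated, were lower for 5 of 22 and higher for 3 (2 and 5 without tumour B). With both tumours the shares lower and higher were 22.7% and 13.6%, against 11.8% and 14.5% of all genes, and the median difference was -0.03. The receptor gene Notch1 was lower by -1.34 ± 0.25, Notch3 by -2.04 ± 0.49 and Lfng, a sugar transferase that tunes Notch, by -2.54 ± 0.30. Hey2, a Notch effector, was high in tumour 27 alone, at 5.25 against 1.68 in tumour B and 0.88, 1.13 and 1.45 in the lines. Of 25 BMP and TGF-beta genes 8 were higher and 4 lower (7 and 2 without tumour 27), against 14.5% and 11.8% of all genes. The fit of the brighter genes alone tested 12 and called 2 higher and 4 lower. Tgfbr2, the TGF-beta receptor, read 8.02 and 7.04 against 2.46, 3.94 and 4.72 (3.68 ± 0.43), and the BMP receptor genes Bmpr1b and Bmpr2 were lower by -3.05 ± 0.61 and -1.16 ± 0.14. The groups did not overlap for these 3.

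Adhesion and guidance genes were called in both directions, where over all genes 11.8% were lower and 14.5% higher. Of 20 cadherin and epithelial-mesenchymal transition genes 7 were lower and 3 higher (7 and 1 without tumour 27). Zeb1, a repressor of epithelial genes that also keeps granule neuron progenitors immature, read 7.88 and 7.87 against 10.31, 10.73 and 11.04 (-2.84 ± 0.14, adjusted p = 2.15e-10), and the neural cadherin genes Cdh2 and Cdh4 were lower by -1.41 ± 0.23 and -1.73 ± 0.18. Thus Snai2 and Zeb1, both counted as mesenchymal factors, lay on opposite sides. Of 24 axon and adhesion genes 8 were lower and 6 higher (5 and 6 without tumour B). The guidance receptor genes Robo1 and Dcc were lower by -2.46 ± 0.38 and -2.11 ± 0.25, and Unc5c, another netrin receptor, was higher by 2.92 ± 0.27. Sema6d was lower by -3.04 ± 0.20 and Sema4d higher by 2.29 ± 0.32 among 5 lower and 4 higher of 24 semaphorin and plexin genes (2 and 3 without tumour B). The brain proteoglycan genes Bcan and Cspg5 were lower by -1.34 ± 0.25 and -1.73 ± 0.30 while biglycan (Bgn) was higher by 2.22 ± 0.19.

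Among 21 patterning genes of the midbrain and hindbrain, the test called 5 higher and 1 lower (1 and 1 without tumour B), against 14.5% and 11.8% of all genes. Among them were the hindbrain gene Gbx2 (4.25 and 4.66 against 1.87, 2.60 and 3.07, 1.88 ± 0.28) and the Iroquois gene Irx5 (1.40 ± 0.35). Of 26 Hox genes 1 was higher, Hoxa10 by at least 1.86, and 1 lower, Hoxb9. In the granule neuron lineage, from which the tumours arise, 3 of 22 genes were lower and 1 higher (2 and 2 without tumour B), and the lower ones included Nfia (-1.52 ± 0.17) and Nfib (-1.19 ± 0.22). Imprinted Mest was lower by -3.57 ± 0.60, with 5.63 and 7.56 against 8.77, 10.20 and 11.47. Interferon response genes were lower for 1 of 22 and antigen presentation genes higher for 2 of 16 (0 without tumour 27).

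Cholesterol synthesis genes were lower, chiefly in tumour 27. Of 18 measured 9 were lower and 1 higher, against 11.8% and 14.5% of all genes, with a median of -0.74. All 18 were among the brighter genes, of which 21.3% were lower and 18.3% higher. In the fit of tumour cultures alone 5 were lower and 0 higher. Without tumour 27 the median was -0.23. Hmgcs1, an early enzyme of the pathway, was lower in both, at 9.74 and 9.998 against 11.02, 11.33 and 11.80 (-1.47 ± 0.17). Fdps, which makes farnesyl diphosphate, read 8.56 in tumour 27 but 10.03 in tumour B, the latter inside the range of the lines (9.99, 10.22 and 10.83). In all 17 of 18 genes read lower in tumour 27 than in tumour B. Hypoxia and glycolysis genes were lower for 3 of 20 and higher for 1, against 11.8% and 14.5% of all genes. Their median difference from the lines was -0.58 in tumour 27 and 0.50 in tumour B.

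Differences followed whole chromosomes in part. Over the 9097 brighter genes, those with a mean of at least the median over the tumour cultures, 18.3% were higher and 21.3% lower. On chromosome 15, 56.9% of 353 genes were higher and 4.5% lower, and the median gene differed from the lines by 0.56 in tumour 27 and 0.63 in tumour B. In 6 runs of neighbouring genes along this chromosome the medians were 0.46 to 0.67 and 0.51 to 0.71, so all 6 runs were raised in both tumours. Line 49 alone among the lines showed a like shift, of 0.44. Chromosome 8 was shifted by 0.31 and 0.30, and line 83 by 0.42.

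Other chromosomes set the 2 tumours apart. Chromosome 18 had a median of -0.76 in tumour 27 and 0.04 in tumour B, with -0.87 to -0.67 over its 6 runs in tumour 27. Chromosome 12 had -0.77 and -0.22, and 50.2% of its genes were lower. Chromosome 5 had 0.11 and 0.42 and the X chromosome -0.11 and 0.37. The lines had shifts of their own, on chromosome 6 in lines 91, 92 and 9 (0.39, 0.40 and 0.35), on chromosome 11 in lines 74 and 77 (0.40 and 0.36), on chromosome 17 in line 91 (0.52) and on chromosome 1 in line 49 (0.43). Copy number was not measured. Centring the brighter genes within each chromosome was an alternative added after the data were seen. It called 3811 of 9097 genes, 1858 higher and 1953 lower, of which 2962 were also called in the main fit. Without the centring 3884 were called, of which 3608 were also called in the main fit.

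**Figure D5:**
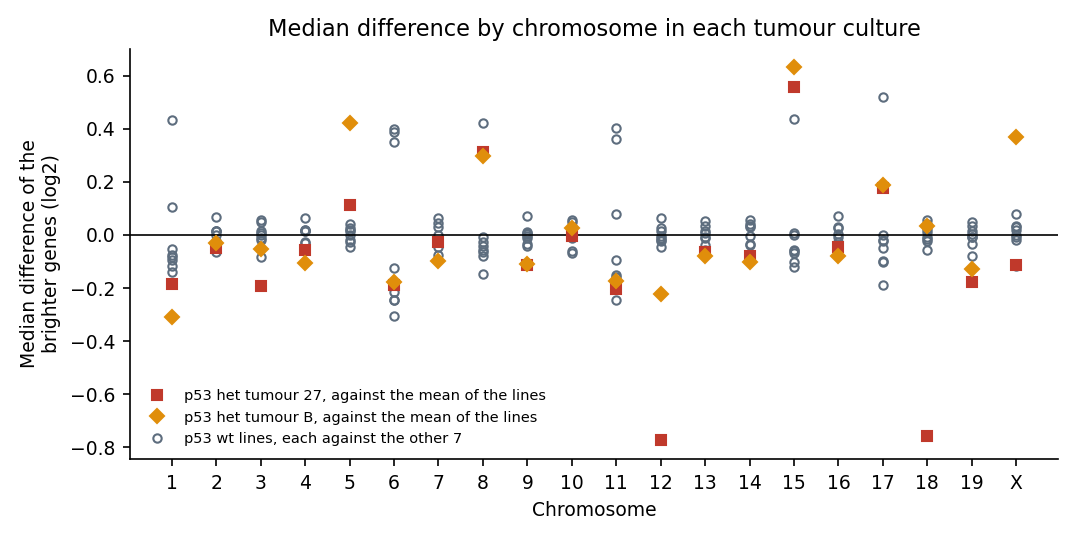
Median log2 difference of the brighter genes on each chromosome for tumours 27 (square) and B (diamond) against the mean of the 8 lines, and for each line (circle) against the other 7. Both p53 het tumours are raised on chromosome 15 (0.56 and 0.63), and only tumour 27 is lowered on chromosome 18 (-0.76).

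The genes with the widest gap between the p53 het tumours, among those called, showed what an average over 2 tumours can mix. Irs4, an X-linked insulin receptor substrate, read 7.22 in tumour 27 and 1.55 in tumour B against 1.09, 1.28 and 1.74, and Islr, a secreted leucine-rich repeat protein, read 5.46 and 1.59 against 1.68, 1.83 and 2.56. Only tumour 27 was raised for these. Tubb2b, a neural beta-tubulin, read 3.81 in tumour 27 and 9.68 in tumour B against 9.74, 10.01 and 10.39, and Ilvbl read 1.70 and 6.82 against 5.81, 6.54 and 7.34. Tumour 27 was far under the lines for both, while tumour B was just under the lowest line for Tubb2b and inside their range for Ilvbl. Tumour B was the low one for Cdh13, at 7.34 and 3.27 against 6.69, 7.36 and 7.74, and Zfp799, at 5.71 and 1.77 against 5.56, 5.78 and 6.34. With 1 culture of each tumour the gap between tumours 27 and B was not tested.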

How the data were processed

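The values are log2 intensities of 45101 Affymetrix probe sets, made by the authors with RMA (background correction, quantile normalization and summary per probe set), per the submitters' processing notes, and used as deposited; depth has no meaning here, and the number of arrays limits precision. Of the probe sets 34958 carried 1 gene symbol, 932 several and 9211 none. For each of 18194 genes the single-symbol probe set that was brightest on average across the 31 arrays was used (9012 genes had more than 1). The 3 technical arrays of each p53 het tumour were averaged. Differences were fitted with limma 3.58.1 (R 4.3.3, lmFit and eBayes) as 5 group means over 19 cultures, and p-values were adjusted by Benjamini-Hochberg over all genes, calling genes under 0.05 whatever their fold. The script was tested on simulated data. Of 50 genes changed by each of 1, 2, 3 and 4 log2 units, 40, 50, 48 and 50 were recovered, with 5 false calls. The simulated noise was independent between genes, with the same spread in every group and no shifts of whole chromosomes. Its false calls therefore give no error rate for the calls made here. Summaries and plots used Python 3.11.15, pandas 2.3.3, numpy 2.4.6 and matplotlib 3.10.9. Genes named outside the lists are the 12 highest and 12 lowest of the called genes whose groups did not overlap, and the 4 called genes with the largest gap between the p53 het tumours each way; in each list with at least 3 called members, or on p53, hedgehog or the cell cycle, the members with the smallest p and any called member could be named, and other members given by their value. Hoxa10, Hoxb9 and Ptprc were named after their values were seen. Members and lists were chosen with earlier results of these data known. Alternatives changed the scaling, the probe set rule, the filter on dim genes, the variance model, the samples in the fit, the technical array, and the date mark as a random block. Trp53 had no single-symbol probe set and was not analysed here.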

Additional observations from a re-analysis of the deposited data

Results flagged for a closer look

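Among the 8 p53 wild-type lines, single lines stood apart from the other 7 for 24 of 178 genes named in the text by Dixon's gap test. The cut flags about 5% of independent, normally distributed genes by chance. These 178 genes were chosen partly by their results and are not independent, so whether 24 exceeds chance was not tested. Line 49 was the highest for Alpl (5.76), Col6a1 (4.38), Gpr161 (6.87), Gtse1 (7.14), Notch1 (9.54), Notch3 (7.63), Slc1a3 (10.32) and Tubb3 (5.69), and the lowest for Olig2 (9.37) and Thy1 (3.54). Line 68 was the highest for the glial genes Sox10 (5.48), Erbb3 (3.43) and Gpr17 (5.31) and for Cthrc1 (2.72), and the lowest for S100b (5.44). Line 83 was the lowest for the p53 targets Eda2r (4.40) and Trp53inp1 (7.84) and for Mxra8 (5.45) and Slc1a2 (4.90), and the highest for Wif1 (2.70) and Ibsp (1.53). For Ibsp every line read under the background guide of 1.67. Line 91 was the highest for Hapln1 (1.95) and the lowest for Ctsc (2.29), and line 74 was the lowest for Pmel (2.85).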

How the results depend on the processing

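The 4782 calls were 1810 when a difference of at least 2-fold was also asked for and 8327 of 34958 when all probe sets were kept apart. Leaving out each of the 10 tumour cultures in turn (the NSC cultures were not left out) gave 3588 to 4980, with 3588 without tumour 27 and 3622 without tumour B. The other alternatives gave 3627 (tumour cultures only) to 5688 (single arrays with the tumour as a random block). Against the lines of 1 date mark at a time the counts were 4155 and 5177, and with the date mark as a random block 4252. In the latter each p53 het tumour was its own block, since its arrays carry more than 1 mark. No mark is shared by the genotypes, so that setting cannot separate mark from genotype. The split of 2636 higher and 2146 lower became 2241 and 2320 when all arrays were shifted to 1 median, and 1770 and 2114 of 9097 when dim genes were left out. With dim genes left out and centred within each chromosome, an alternative chosen after seeing the data, it was 1858 and 1953, and Rrm2b turned to -0.077. Of 147 called genes named in the text, 34 lost their call in at least 1 setting other than the 2-fold minimum, 18 of them without tumour 27 and 20 without tumour B. Without tumour 27 these were Axl, Bmpr1b, Brca1, Btg2, Cdkn2a, Chek1, Fdps, Gad1, Gpr161, Hoxb9, Ilvbl, Irs4, Islr, Rrm2b, S100b, Sufu, Tubb2b and Xpc. Without tumour B they were Atm, Bcan, Btg2, Cdh13, Cdkn1b, Cdkn2a, Col1a1, Fzd3, Gpr161, Hoxb9, Irx5, Nfib, Notch1, Notch3, Rrm2b, Sox2, Sox8, Sufu, Tigar and Zfp799. Islr also lost its call without line 9, 68, 74, 77, 91 or 92, and Rrm2b without line 9, 68, 77, 83 or 91. With the mean of all probe sets of a gene 6 called genes lost their call: Cdkn1b, Fdps, Fzd3, Gpr161, Mdm4 and Sufu. In that setting Fzd3 differed by -0.42 (adjusted p = 0.116) and Fdps by -0.46 (adjusted p = 0.0528). Some named genes that were not called gained a call in other settings, among them Sfn, Mdm2, Apoe and Gja1. The Chek1 log2 difference was -0.315 and the S100b log2 difference 1.359 without tumour 27, and the Sox8 log2 difference was -1.381 and the Notch1 log2 difference -0.614 without tumour B. Some genes on which the 2 p53 het tumours differ turned with the tumour left out: the Cdh13 log2 difference was 0.059 without tumour B and -4.016 without tumour 27, and in the same order the values were -4.83 and 0.29 for Ilvbl, 3.52 and -0.35 for Islr, and -0.57 and 0.56 for Mcm7. The cause of these moves was not tested beyond the samples or genes that each setting leaves out. No paired analysis was possible because the p53 wild-type lines and the p53 het cultures come from different tumours. With 2 p53 het tumours, each leave-out of a tumour rests on a lone sample that is assumed to vary like the other groups.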
